A study of Bos taurus with 60 samples.

Results

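The mature miRNAs bta-miR-126-5p and bta-miR-126-3p are the 2 arms of a single hairpin, and they were taken from the liver small RNA of 60 beef steers by their exact names. They make up 2 of the 1030 known bovine miRNAs counted in each library. The steers were castrated males, 20 each of purebred Angus, purebred Charolais and the crossbred Kinsella Composite (KC), with 1 library per steer. Residual feed intake (RFI) is the difference between the feed an animal eats and the feed predicted from its weight and growth, so that a low-RFI steer eats less than predicted. The labels place 6 steers of each breed in a low-RFI group and 6 in a high-RFI group, and give no RFI group for the other 8. All steers received one barley-based finishing diet, no agent distinguished the groups, and the liver was sampled after slaughter. The breeds were slaughtered at different average ages according to the study's methods, so breed and age at slaughter cannot be told apart. The same methods chose the steers of the RFI groups partly because their miRNA profiles resembled those of their breed. Sequencing was done in 4 pools of 15 libraries, and which steer was in which pool is not given in the sources used here.

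miR-126 is the best-known miRNA of the endothelium, the cell layer that lines blood vessels and the sinusoids of the liver. Its hairpin lies within EGFL7, a gene for a secreted vascular protein, and in the RefSeq table of assembly ARS-UCD2.0 EGFL7 was the only gene whose span held MIR126. The enzyme Dicer cuts the hairpin into a duplex, and one or the other strand is then loaded into an Argonaute protein. The 3p arm is known for restraining SPRED1 and PIK3R2, which dampen signalling by vascular endothelial growth factor, and VCAM1, an adhesion molecule for leukocytes. The 5p arm is known for restraining DLK1, a non-canonical Notch ligand, and so for endothelial proliferation. In whole liver, fewer endothelial cells and less miR-126 per cell cannot be told apart.

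The mature sequences are shown because the 2 arms come from one hairpin but carry unrelated seeds, the bases 2 to 8 with which a miRNA pairs to its targets. Each is written 5′ to 3′ with the seed in capitals, as listed in the study's table of mature sequences. The seed is counted from the first listed base, and whether the reads start at that base was not examined.
bta-miR-126-5p: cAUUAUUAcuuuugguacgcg
bta-miR-126-3p: cGUACCGUgaguaauaaugcg
Both arms are 21 bases long, with A or U at 61.9% of the bases of the 5p arm and 52.4% of the 3p arm. Of the 588 mature sequences searched, 0 shared the seed of either arm, 0 held it shifted by 1 base and 0 lay within 1 mismatch of the whole arm. The arms were computed to form 18 base pairs with each other, of which 6 were G-C, 10 A-U and 2 G-U. The first 4 bases of each arm were paired in that duplex, with 1 G-C pair for the 5p arm and 2 for the 3p arm. Each arm was listed with 1 precursor, so its own count did not depend on how counts of several precursors were merged.

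Both arms were counted deeply in every steer. The raw count of bta-miR-126-5p had a lowest, median and highest value of 49768, 87795 and 114414 reads in KC, 29620, 66526 and 82581 in Charolais, and 30156, 54606 and 79728 in Angus. The corresponding counts of bta-miR-126-3p were 5633, 9601 and 12333 in KC, 3191, 7541 and 9944 in Charolais, and 3464, 6031 and 10549 in Angus. KC counts were highest for both arms, as were the library totals, which had a median of 5547018 in KC, 4405876 in Charolais and 3720336 in Angus and ran from 1930859 to 6759381 over all steers. bta-miR-126-5p held 1.54% ± 0.171 (SD, n = 60) of a library and ranked between 9 and 15 among the known miRNAs of a steer, with a median rank of 10. bta-miR-126-3p held 0.176% ± 0.0292 (SD, n = 60) and ranked between 29 and 41, with a median of 38. These shares and ranks rest on counts averaged over precursors, and so depend on how the counts of other miRNAs were merged. The study's own list of abundant miRNAs, by average count, places bta-miR-126-5p slightly lower in each breed. That list has bta-miR-27a-3p above bta-miR-126-5p, whereas in the counts used here bta-miR-27a-3p was far below it. The cause was not tested. The endothelial hairpin was thus represented by an abundant and a moderately abundant strand in all 60 livers.

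Levels were compared as CPM, reads of a miRNA per 1000000 reads of the library, scaled by the TMM factors of edgeR, which correct a library total for its composition. The factors ran from 0.671 to 1.17. Those of 2 libraries stood apart, at 0.671 for an Angus steer and 0.685 for a Charolais steer, both without an RFI group, and the next lowest was 0.795. In these 2 libraries bta-miR-143, a miRNA of smooth muscle and fibroblasts, took 20.4% and 25.7% of the reads, against a median of 16.6% over all steers. Hepatocyte miRNAs (miR-122, miR-885, miR-192 and miR-194) summed to between 174700 and 357200 CPM in the steers, and all 4 were present in each breed. Lists for other cell types summed to 2880 to 5265 CPM for leukocytes, 3392 to 13650 for blood, 116100 to 377000 for mesenchymal cells, 109.3 to 353.9 for bile duct epithelium and 20.95 to 60.38 for muscle. In the muscle list bta-miR-133b and bta-miR-206 averaged under 1 CPM in each breed.

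bta-miR-126-5p averaged 15556 ± 1544 CPM over the 20 KC steers, 15298 ± 1505 CPM over the 20 Angus and 15286 ± 1210 CPM over the 20 Charolais steers (SD). Its lowest, median and highest values were 12423, 15387 and 18833 CPM in KC, 13063, 15432 and 19369 in Angus, and 12666, 14985 and 17150 in Charolais. The breeds overlapped over nearly their whole ranges, and the highest steer of all had 1.56 times the level of the lowest. That highest value belonged to the Angus library with the lowest TMM factor, in which the 5p arm held only 1.30% of the reads, below the average share.

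bta-miR-126-3p averaged 1766 ± 261 CPM in the 20 Charolais steers, 1761 ± 157 CPM in those of KC and 1720 ± 180 CPM in the 20 Angus steers (SD). Its lowest, median and highest values were 1365, 1708 and 2311 CPM in Charolais, 1406, 1768 and 2035 in KC, and 1412, 1771 and 2042 in Angus. Charolais steers lay furthest apart and held both the lowest and the highest value, and the 3 ranges overlapped. The highest steer had 1.69 times the level of the lowest.

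**Figure D1:**
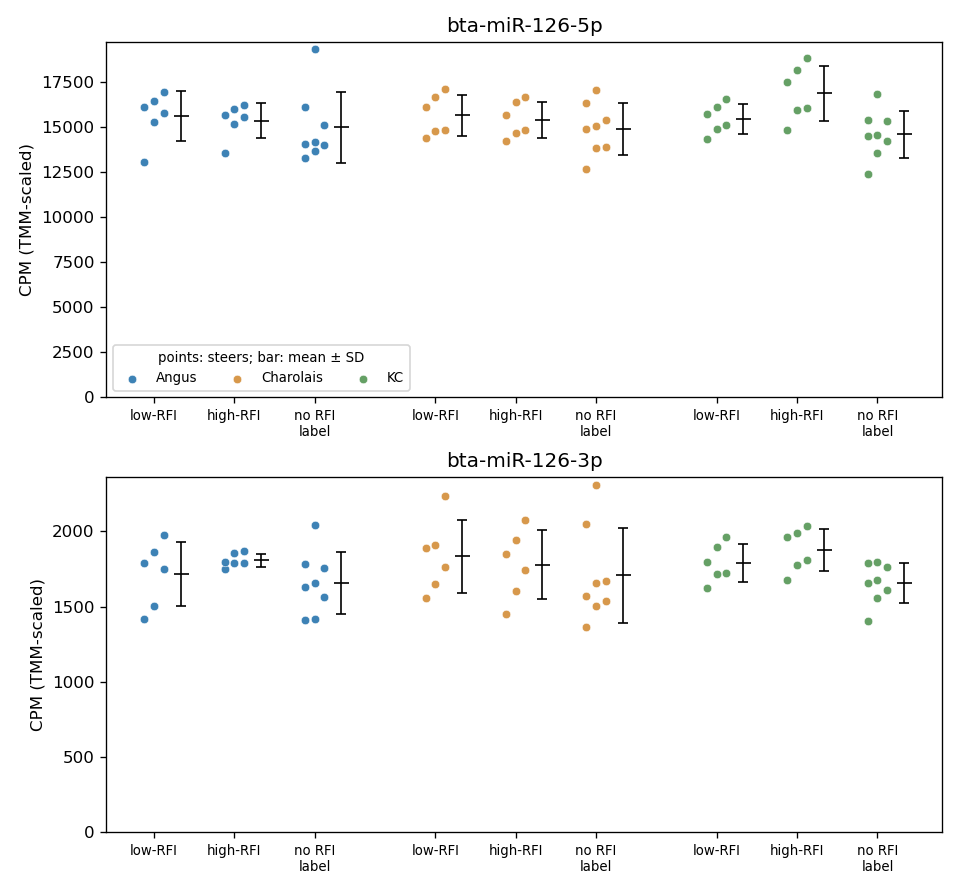
Level of each arm in CPM (vertical axis, TMM-scaled, starting at 0) for each steer, by breed and RFI group (horizontal axis). Points are steers, and the black bars give the mean ± SD of 6 or 8 steers. The 9 groups overlap for both arms, the single Angus steer at 19369 CPM of the 5p arm lies above all others, and the widest group of the 3p arm is the Charolais steers without an RFI label, from 1365 to 2311 CPM.

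Breed differences were tested in 1 fit with edgeR (quasi-likelihood F test) of the 60 steers over 443 miRNAs, with p-values adjusted by Benjamini and Hochberg. Of the tested miRNAs, 74 differed among the breeds at an adjusted p under 0.05, which is 16.7%, and neither arm of miR-126 was among them (adjusted p = 0.893 for bta-miR-126-5p and 0.855 for bta-miR-126-3p). Neither arm was called in a pairwise contrast, where KC differed from Charolais in 72 miRNAs (16.3%) and from Angus in 48 (10.8%), and Charolais differed from Angus in 6 (1.35%). For KC alone, 52 further pairs of a miRNA and a precursor were listed, and counts were averaged over precursors. Without those pairs 60 of 440 miRNAs differed among the breeds, 50 between KC and Charolais, 30 between KC and Angus and 11 between Charolais and Angus. The list counts below were not repeated without them. The log2 fold change of bta-miR-126-5p was -0.0011 (SE 0.045) for Charolais against Angus, 0.02 (SE 0.045) for KC against Angus and 0.03 (SE 0.045) for KC against Charolais. For bta-miR-126-3p the corresponding values were 0.04, 0.03 and -0.0043, each with an SE of 0.054. All 6 estimates were smaller than their standard errors. The 95% confidence intervals put the KC to Angus ratio between 0.956 and 1.08 for the 5p arm and between 0.950 and 1.1 for the 3p arm, which bounds the size of any difference but does not show that the breeds were equal. The other 4 intervals lay between 0.925 and 1.11. This fit took steers as independent, although steers of a breed share sires, such as the 20 Charolais steers of 5 sires. Its intervals may be too narrow, and the breed calls here and below too many.

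**Figure D2:**
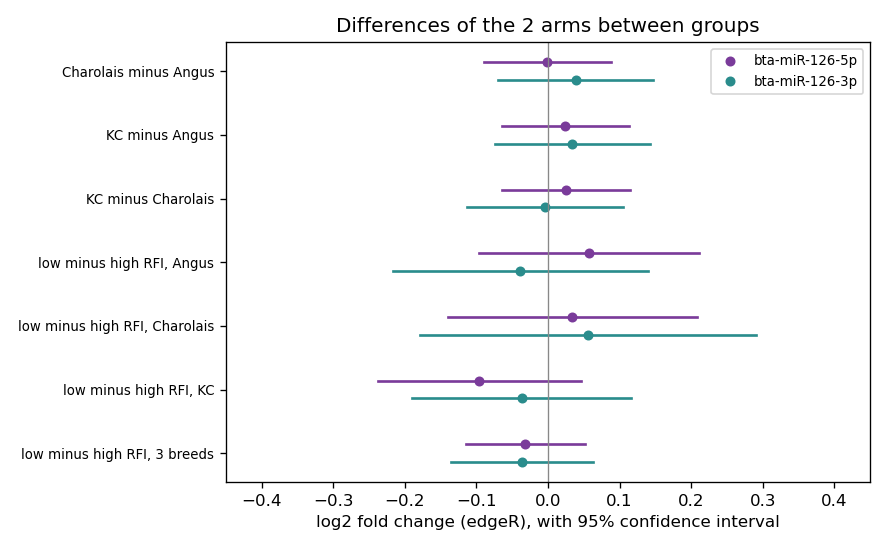
Log2 fold change of each arm (horizontal axis, edgeR) in 3 breed contrasts and 4 RFI contrasts (vertical axis). Points are estimates and lines are 95% confidence intervals. All 14 intervals include 0, and the breed intervals, from 20 steers a breed, are narrower than those within a breed, from 6 steers a group.

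The RFI comparison asks whether miR-126 in the liver differs between steers that use feed more and less efficiently. In Angus, bta-miR-126-5p had a lowest, median and highest level of 13063, 15980 and 16971 CPM in low-RFI steers and 13557, 15623 and 16251 CPM in high-RFI steers. In Charolais the values were 14404, 15473 and 17150 CPM against 14215, 15264 and 16673 CPM. In KC they were 14325, 15434 and 16590 CPM against 14840, 16797 and 18833 CPM. The groups overlapped in each breed, with the high-RFI KC steers reaching above the highest low-RFI KC steer. Of the 9 groups, the highest mean was that of high-RFI KC steers at 16900 ± 1529 CPM (SD, n = 6), followed by low-RFI Charolais at 15665 ± 1132, low-RFI Angus at 15629 ± 1377, low-RFI KC at 15468 ± 838, high-RFI Charolais at 15412 ± 989 and high-RFI Angus at 15374 ± 964. Each neighbouring pair in that order differed by less than the larger of their SDs.

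For bta-miR-126-3p, the lowest, median and highest levels in Angus were 1420, 1769 and 1975 CPM in low-RFI steers and 1747, 1792 and 1866 CPM in high-RFI steers. High-RFI Angus steers lay within the range of low-RFI ones and much closer together, with an SD of 45.2 CPM against 214 CPM. All 3 steers of one Angus sire were in the high-RFI group, at 1787 to 1866 CPM, and the difference in spread was not tested. In Charolais the levels were 1554, 1824 and 2235 CPM against 1453, 1796 and 2078 CPM, and in KC they were 1624, 1760 and 1965 CPM against 1679, 1886 and 2035 CPM. Here too the groups overlapped in each breed. The order of the means ran from high-RFI KC at 1874 ± 140 CPM (SD, n = 6) through low-RFI Charolais at 1833 ± 240, high-RFI Angus at 1806 ± 45.2, low-RFI KC at 1787 ± 125 and high-RFI Charolais at 1778 ± 227 to low-RFI Angus at 1716 ± 214, and no neighbours in it differed by more than the larger of their SDs.

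Fitted within each breed, low-RFI against high-RFI gave a log2 fold change of bta-miR-126-5p of 0.06 (SE 0.073, 95% interval -0.097 to 0.21) in Angus, 0.03 (SE 0.082, -0.14 to 0.21) in Charolais and -0.10 (SE 0.066, -0.24 to 0.046) in KC. None passed the test, with adjusted p-values of 0.970, 0.998 and 0.966 by edgeR. Only 2 sires in Angus, 1 in Charolais and 1 in KC had steers in both RFI groups. RFI group and sire can therefore hardly be told apart, in this and every RFI comparison here. Without 1 high-RFI KC steer, the one at 14840 CPM, the KC value was -0.16 (95% interval -0.29 to -0.032, unadjusted p = 0.0185, adjusted p = 0.940 by edgeR). That steer had the lowest level of its group, so its omission widens the difference and gives no test. For bta-miR-126-3p the log2 fold changes were -0.04 (SE 0.084, -0.22 to 0.14), 0.06 (SE 0.11, -0.18 to 0.29) and -0.04 (SE 0.071, -0.19 to 0.12), with adjusted p-values of 0.970, 0.998 and 0.995. The quasi-likelihood test called 0 miRNAs of any kind (0%) at an adjusted p under 0.05 in each of the 3 breeds. At an unadjusted p under 0.05 its counts were 14 of 385 (3.64%) for KC, 14 of 373 (3.75%) for Angus and 19 of 373 (5.09%) for Charolais, and no arm of miR-126 was among them. DESeq2 and the likelihood-ratio test of edgeR called 0 at an adjusted p under 0.05 in Angus and Charolais and 1 each in KC.

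Over the 36 steers with an RFI group, with breed in the model, the log2 fold change of low-RFI against high-RFI was -0.03 (SE 0.041, 95% interval -0.11 to 0.052) for bta-miR-126-5p and -0.04 (SE 0.049, -0.14 to 0.063) for bta-miR-126-3p, both with an adjusted p of 0.978 by edgeR. This fit called 0 of 426 miRNAs (0%) at an adjusted p under 0.05 and found 13 (3.05%) at an unadjusted p under 0.05, and DESeq2 and the likelihood-ratio test also called 0. Without the TMM factors both estimates changed sign, to 0.034 and 0.031. The RFI difference was not shown to vary with breed, with an unadjusted p for the interaction of 0.242 for the 5p arm and 0.653 for the 3p arm, both 0.994 after adjustment in edgeR. The interaction test called 0 of the 426 miRNAs (0%), had 16 at an unadjusted p under 0.05, and called 1 by the likelihood-ratio test.

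The arm ratio, the reads of bta-miR-126-5p for each read of bta-miR-126-3p, is free of library size and of any scaling. It is a ratio of reads of equal-length strands and carries whatever difference there is in how well each strand enters a library. The 5p arm predominated in all 60 steers, with a lowest, median and highest ratio of 7.08, 8.81 and 13.6 and a mean of 8.86 ± 0.945 (SD, n = 60). The 5p arm thus made up 89.8% ± 0.865 of the reads of the hairpin. By breed the ratio averaged 8.99 ± 1.36 in the 20 Angus, 8.84 ± 0.525 in the 20 KC and 8.75 ± 0.780 in the 20 Charolais steers (SD). Its lowest, median and highest values were 7.56, 8.71 and 13.6 in Angus, 7.56, 8.81 and 9.57 in KC, and 7.08, 9.01 and 9.78 in Charolais. Angus had the highest mean and the lowest median, since 2 of its steers lay at 11.3 and 13.6 while no other steer of any breed exceeded 9.78.

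The mean log2 ratio was 0.02 higher in KC than in Charolais (KC minus Charolais), and the difference from Angus was -0.03 for Charolais and -0.01 for KC. Permutation tests with 100000 resamples, two-sided, gave an adjusted p of 0.804 for each of the 3 differences. The standard error that counting alone gives the log2 ratio of 1 steer was between 0.0137 and 0.0269, covering counting error only, against an SD of 0.142 among the 60 steers. Variation from library preparation was not measured. Without the 2 highest Angus steers the SD was 0.107, and that of Angus alone fell from 0.193 to 0.0963.

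**Figure D3:**
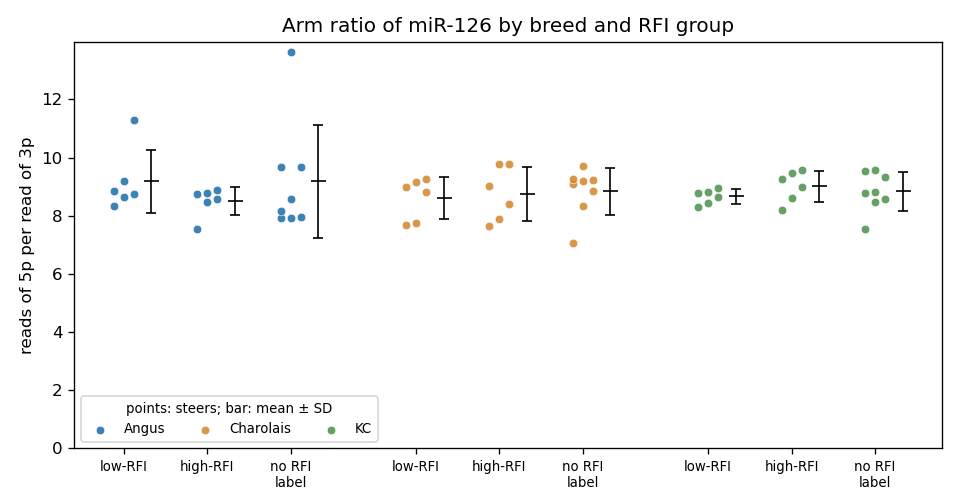
Reads of bta-miR-126-5p for each read of bta-miR-126-3p (vertical axis, a ratio, starting at 0) in each steer, by breed and RFI group (horizontal axis). Points are steers and black bars the mean ± SD. Group means lie between 8.51 and 9.19, and 2 Angus steers, at 11.3 in the low-RFI group and 13.6 without an RFI label, lie above the rest.

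In low-RFI Angus the lowest, median and highest ratios were 8.34, 8.80 and 11.3, against 7.56, 8.67 and 8.90 in high-RFI Angus. The Charolais groups had 7.67, 8.91 and 9.27 against 7.66, 8.72 and 9.78, and the KC groups had 8.31, 8.72 and 8.97 against 8.20, 9.13 and 9.57. The groups overlapped in each breed. The difference in mean log2 ratio, low-RFI minus high-RFI, was 0.10 in Angus (exact two-sided permutation p = 0.206 over all relabelings of the 12 steers, adjusted p = 0.308), -0.02 in Charolais (exact permutation p = 0.781, adjusted 0.781) and -0.06 in KC (exact permutation p = 0.175, adjusted 0.308). The Angus estimate rested largely on the steer at 11.3 and was 0.043 without it. The KC estimate was -0.083 without the high-RFI steer at 8.20 (exact permutation p = 0.0325, adjusted p = 0.0974). That steer had the lowest ratio of its group, so its omission had to widen the difference and gives no test. Over the 3 breeds together the difference was 0.0089 (permutation p = 0.825). The 3 breed effects spanned 0.160, which did not pass the test of a difference between breeds (permutation p = 0.207).

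Because both arms are cut from 1 hairpin, their levels were compared across steers. On the log2 CPM scale Pearson's r between the arms was 0.563 over 60 steers (permutation p = 1e-05, the smallest that the resamples can give, adjusted p = 8e-05) and Spearman's rho was 0.607 (p = 1e-05, adjusted p = 0.00016). Adjustment was over 16 relations, in which each of the arms and the ratio were also related to the library total. Within breeds r was 0.813 in Charolais (adjusted permutation p = 8e-05, rho 0.782 with adjusted p = 0.00112) and 0.801 in KC (adjusted permutation p = 0.000107, rho 0.675 with adjusted p = 0.00848). Without the 2 steers farthest from the median of the 5p arm r was 0.676 over all steers, 0.732 in Charolais and 0.667 in KC. Steers with more of one strand had more of the other in these 2 breeds, though both arms of a steer share 1 library and 1 scaling.

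The Angus steers gave an r of 0.145 (permutation p = 0.542, adjusted p = 0.653) and a rho of 0.386 (permutation p = 0.0923, adjusted p = 0.295). Without the 2 steers farthest from the median of the 5p arm, r was 0.400. The 2 Angus steers with the highest arm ratio combined 19369 and 16971 CPM of the 5p arm with 1420 and 1501 CPM of the 3p arm. Before TMM scaling they had 1.30% and 1.58% of their reads in the 5p arm, and 0.0953% and 0.140% in the 3p arm. The 0.0953% was the lowest 3p share of all 60 steers. Without these 2 steers r was 0.733, given as a description with no test, since steers left out for their discordant arms had to raise it. With all 20 steers and no TMM factors r was 0.785, and over all 60 steers it was 0.843. Both arms of a steer then share an uncorrected library total, which can move them together, so these values give no test. Without the 2 libraries of the lowest TMM factors, which include the steer at 13.6, r was 0.520 in Angus and 0.692 over the remaining 58 steers. No difference of r between breeds was tested. None of the 12 relations of an arm or of the ratio with the library total passed at an adjusted p under 0.05, the lowest being that of the ratio in KC (r = 0.534, permutation p = 0.0147, adjusted p = 0.0587, rho = 0.361).

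**Figure D4:**
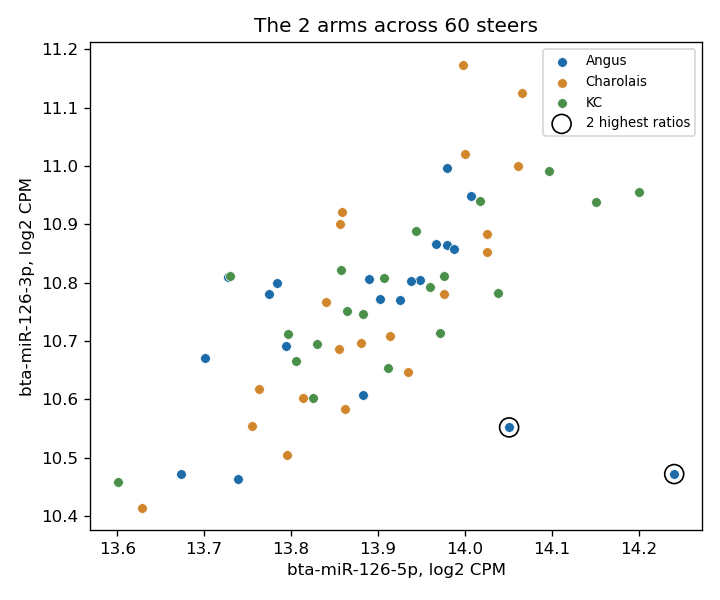
Level of bta-miR-126-3p (vertical axis, log2 CPM) against that of bta-miR-126-5p (horizontal axis, log2 CPM), 1 point per steer, coloured by breed. The arms rise together in Charolais (r = 0.813) and KC (r = 0.801). The 2 circled Angus steers, with ratios of 11.3 and 13.6, lie apart at high 5p and low 3p after TMM scaling.

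Steers share sires, which the labels give. Among sires with at least 2 steers, the raw between-sire share of the variation of the log2 ratio was 45.5% in Charolais (5 sires, 20 steers, permutation p = 0.0494). This did not pass after adjustment over the 9 tests run (adjusted p = 0.242). Such a share is positive even where sires do not differ, and it rises with the number of sires. The 8 steers of one Charolais sire had ratios of 7.08 to 9.23 with a mean of 8.26, while the 2 steers of another, both high-RFI, had 9.77 and 9.78. With sires of at least 3 steers only, the share was 33.4% (permutation p = 0.111, adjusted p = 0.498). For bta-miR-126-3p in Charolais the share was 44.3% (permutation p = 0.0537, adjusted p = 0.242). The other 7 tests had adjusted p-values from 0.516 to 0.963. The 2 Angus steers of highest ratio had different sires. In KC only 2 sires had more than 1 steer.

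The arms were among the steadier miRNAs of the liver. Within breeds the SD of the log2 level was 0.133 for bta-miR-126-5p and 0.168 for bta-miR-126-3p, and they were the 13th and the 34th least variable of 212 miRNAs with a mean of at least 10 CPM, whose median SD was 0.271. Counting error is smaller for abundant miRNAs, and its part in this order was not tested.

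The arm ratio was set beside those of the other hairpins. Both arms averaged at least 10 CPM for 11 hairpins with names of this kind, and 7 of the 11 had more of the 5p arm. Arms were paired by name and counts averaged over precursors, so a pair other than miR-126 may stand for more than 1 hairpin. The mean log2 ratio of miR-126 was 3.14. The nearest below were miR-423 at 2.10 and miR-455 at 1.17, and the nearest above were the leukocyte miRNA miR-142 at 4.55 and miR-99a at 5.37. The SD of the log2 ratio over 60 steers was 0.142 for miR-126, the lowest of the 11, against 0.156 for miR-142, a median of 0.300 and 0.604 for miR-99a. The less abundant arm averaged 1749 CPM for miR-126, 148 CPM for miR-142 and 29.8 CPM for miR-99a, so hairpins differ in depth as well as in spread, and the order was not tested.

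**Figure D5:**
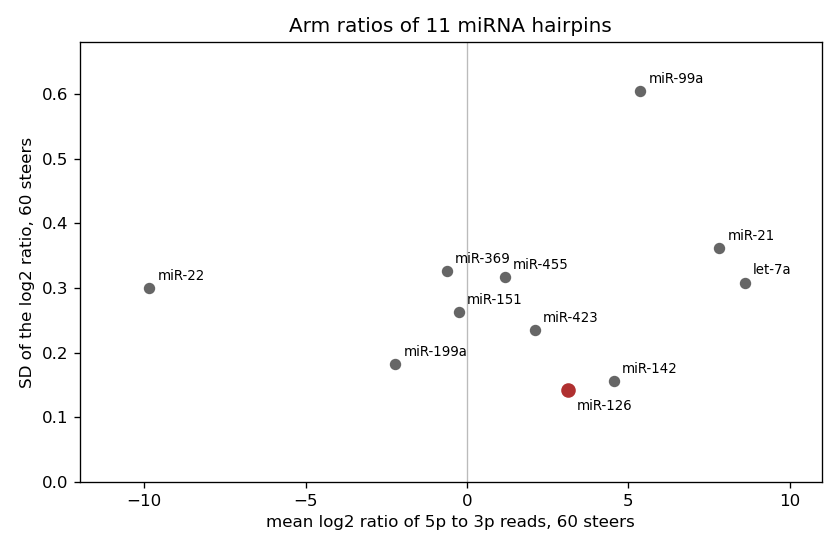
SD of the log2 ratio of 5p to 3p reads over 60 steers (vertical axis, starting at 0) against the mean log2 ratio (horizontal axis, above 0 where the 5p arm has more reads) for 11 pairs of arms. Each point is a pair matched by name, and miR-126 is in red, with an SD of 0.142 at a mean of 3.14, next to miR-142 at 0.156 and 4.55.

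The miRNAs whose levels followed each arm most closely were found from Pearson's r over 60 steers, on log2 CPM centred on the breed mean, among 211 others. These values are a description, since all are measured in the same libraries and share their scaling. bta-miR-126-3p came second for bta-miR-126-5p, with an r of 0.563 after centring. bta-miR-101 came before it with 0.569, and bta-miR-30e-5p (0.527), bta-miR-26b (0.507), bta-miR-148a (0.481) and bta-miR-2284x (0.444) followed. These 5 had positive r in each of the 3 breeds, from 0.275 to 0.659. For bta-miR-126-3p the other arm came first, followed by bta-miR-27a-3p (0.517), bta-miR-29a (0.510), bta-miR-29c (0.481), bta-miR-15a (0.481) and bta-miR-425-5p (0.432). The level of bta-miR-27a-3p here, a mean of 674 CPM, is far below its place in the study's list of abundant miRNAs. bta-miR-425-5p was uneven among breeds, with an r of 0.809 in Charolais, 0.0834 in KC and -0.148 in Angus. The 2 lists of 5 had no miRNA in common. Several of these miRNAs, such as those of the miR-26, miR-27, miR-29 and miR-30 families, have relatives of nearly the same sequence with which reads could have been shared.

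Other miRNAs known from endothelium and vessel growth formed a list of 31, of which 29 were tested and bta-miR-217 and bta-miR-503-5p averaged under 1 CPM. Between Charolais and Angus 0 of the 29 were called by edgeR, where 6 of 443 were called overall. Between KC and Angus 3 were higher and 2 lower in KC, or 5 of 29 beside 48 of 443 (10.8%) over all tested miRNAs, of which 30 were higher and 18 lower. The list median was 0.12 (log2) against 0.0068 over all. Between KC and Charolais 3 were higher and 1 lower in KC, or 4 of 29 beside 72 of 443 (16.3%) over all, of which 41 were higher and 31 lower, with a median of 0.03 against 0.01. In the RFI contrasts, in each breed and over the 3 breeds, 0 of the 29 passed the adjusted test. Over all tested miRNAs it was 0 of 373 in Angus and in Charolais, 0 of 385 in KC and 0 of 426 together.

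bta-miR-23b-3p, of a cluster known for vessel sprouting, rose in KC, at 622 ± 90.3 CPM against 496 ± 53.5 in Angus and 483 ± 104 in Charolais (SD, n = 20 each), with a log2 difference of 0.33 (SE 0.068, adjusted p = 0.000295 by edgeR) from Angus and 0.37 (SE 0.068, adjusted p = 3.4e-05) from Charolais. bta-let-7f, a pro-angiogenic miRNA of the let-7 family, fell in KC, at 22880 ± 2513 CPM against 28610 ± 4250 in Angus and 26620 ± 3001 in Charolais, by 0.32 (SE 0.055, adjusted p = 9.2e-06) and 0.22 (SE 0.055, adjusted p = 0.00313) on the log2 scale. bta-miR-100, an inhibitor of mTOR in vessels, was at 9944 ± 2382 CPM in KC and 6784 ± 3335 in Charolais, a log2 difference of 0.55 (SE 0.13, adjusted p = 0.00193), and Charolais steers ranged from 1582 to 18970 CPM. In the same steers and the same fit, the arms of miR-126 passed no breed contrast.

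bta-miR-155, known from inflamed vessels and from activated leukocytes and therefore in both lists, had a log2 difference of 0.49 (SE 0.14, adjusted p = 0.0173) between KC and Angus. One low-RFI KC steer had 369 CPM, while the next highest KC steer had 133 and the KC median was 73.4. Without that steer the difference was 0.23 (SE 0.087, adjusted p = 0.0691 by edgeR) and was no longer called. The remaining called members, named here because they were counted and not by the rule, were bta-miR-146a (0.29 higher in KC than in Angus, adjusted p = 0.0206), bta-miR-130a (fell by 0.23 from Angus to KC, adjusted p = 0.0191) and bta-miR-20a (0.19 higher in KC than in Charolais, adjusted p = 0.0447).

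The markers of other cell types were few, and their counts stand beside 16.3% of all tested miRNAs called for KC against Charolais and 10.8% for KC against Angus. Among them, 1 of 4 for hepatocytes was called between KC and Angus, bta-miR-885, at 44.1 ± 7.67 CPM against 29.7 ± 7.51 (log2 difference 0.57, SE 0.12, adjusted p = 0.000201 by edgeR). For leukocytes 1 of 5 was called in that contrast, bta-miR-155. For mesenchymal cells 1 of 5 was called between KC and Charolais, bta-miR-199a-5p, with a log2 difference of 0.20 (SE 0.065, adjusted p = 0.0282). Of the blood, bile duct and muscle lists 0 of 3, 0 of 5 and 0 of 3 tested members were called in any breed contrast. In the RFI contrasts 0 members of any list were called, as were 0 of all tested miRNAs. Over steers, the r of list members with bta-miR-126-5p had a median of -0.03 for the 27 endothelial and angiogenic miRNAs with at least 10 CPM, against 0.01 over 210 miRNAs. With bta-miR-126-3p the medians were 0.0964 and 0.0561. The single values ran from -0.309 to 0.398 for the 5p arm and from -0.509 to 0.517 for the 3p arm, with bta-miR-100 the lowest for both arms and bta-let-7f and bta-miR-27a-3p the highest.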

How the data were processed

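Total RNA of liver was made into libraries with the Illumina TruSeq small RNA kit. According to the methods and labels, the authors trimmed reads with cutadapt 1.16, kept 15 to 28 bases, removed other small RNAs, mapped with Bowtie 1.1.1 to UMD3.1 and counted known bovine miRNAs with miRDeep2. The deposited values are raw counts for each mature miRNA and precursor, without normalization. Predicted miRNAs were not analysed here.

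Counts were averaged over precursors and rounded. A miRNA entered a fit when 6 or more of its steers had 1 CPM or more. The quasi-likelihood F test of edgeR (version 4.0.16, run in R 4.3.3 with limma 3.58.1) was used with TMM factors and Benjamini-Hochberg adjustment, and was tested on simulated data. Displayed CPM use factors over 60 steers, and log2 CPM a prior count of 0.5. Permutation tests used 100000 resamples (Python 3.11.15, numpy 2.4.6, scipy 1.17.1, pandas 2.3.3, matplotlib 3.10.9). All relabelings were used for the RFI difference of the ratio within a breed and for breed differences of sire means. Alternatives covered the test (DESeq2 1.42.0), scaling, filter, precursors, subsets of steers, a block for sire and the omission of single steers. Each library is a different steer, and 0 libraries were identical. The RefSeq table is of another assembly than the counts, so no coordinates are given.

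The members and lists were chosen with earlier results of these data known. Named are the arms, the 5 miRNAs of highest r with each, up to 4 members of each list with an adjusted p under 0.05 among breeds and the largest difference between KC and Angus, and the 2 hairpins nearest to miR-126 on each side in arm ratio.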

Additional observations from a re-analysis of the deposited data

Results flagged for a closer look

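In each group of 6 or 8 steers, the highest and the lowest value of each arm and of their ratio were compared with the next value, as a share of the group's range. Over the 27 sets of values, 4 values, from 3 steers, stood apart by Dixon's 95% criterion, which chance alone gives in about 1 set of 20, and all 3 steers were Angus. The arm ratio of 1 low-RFI steer was 11.3, where the next highest was 9.20. The arm ratio of 1 steer without an RFI group was 13.6, where the next highest was 9.68. The same steer had 19369 CPM of bta-miR-126-5p, where the next highest had 16152. The arm ratio of 1 high-RFI steer was 7.56, where the next lowest was 8.48. The steer with the ratio of 13.6 was also the library with the lowest TMM factor, 0.671, which does not enter the ratio, since both arms come from one library.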

How the results depend on the processing

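Neither arm reached an adjusted p under 0.05 in any of 196 alternatives of its log2 fold changes, the lowest being 0.507, nor did the ratio in any of 51, the lowest being 0.0974. Signs of estimates near 0 did change. For Charolais against Angus, bta-miR-126-5p was 0.034 in the 36 steers with RFI group as covariate, 0.014 with DESeq2, 0.014 with RLE factors, 0.019 without a filter, 0.016 with precursors summed, 0.019 without pairs listed only for KC, and 0.035 without the 2 libraries of lowest TMM factor. For KC against Charolais it was -0.0033 with DESeq2 and with RLE factors and -0.00022 without pairs listed only for KC. Without TMM factors bta-miR-126-3p was 0.011 for KC against Charolais, and over the 3 breeds the RFI differences were 0.034 (5p) and 0.031 (3p). Leaving out each steer, the RFI difference of bta-miR-126-5p in Angus ran from -0.0065 to 0.094, that of the log2 ratio in Charolais from -0.058 to 0.012, and those in KC from -0.16 to -0.069 for bta-miR-126-5p and from -0.083 to -0.039 for the log2 ratio, both lowest without the same high-RFI steer. The log2 ratio changed sign with medians to 0.049 (Charolais against Angus), 0.017 (KC against Angus), -0.032 (KC against Charolais) and 0.032 (RFI, Charolais). With sire means it was 0.029 (Charolais against Angus) and -0.034 (KC against Charolais), and for KC against Angus it was 0.0036 in 36 steers and 0.020 without the 2 libraries. The Angus correlation of the arms was 0.785 without TMM factors, where both arms share an uncorrected total, so it gives no test. It was 0.520 without the 2 libraries and 0.733 without the 2 steers of highest ratio. These omissions were chosen after seeing the data and take out a discordant steer, so they give no test. With sire as a block, the RFI differences of the 5p and 3p arms were 0.17 and -0.12 in Angus (5 residual degrees of freedom), 0.15 and 0.26 in Charolais (6) and -0.23 and -0.18 in KC (2), none past the test. In Charolais and KC these rest on 1 sire with both groups, of which 1 steer was low-RFI, so they say nothing of stability. The number of miRNAs called between Charolais and Angus, 6, was 2 in 36 steers, 14 with DESeq2, 11 with precursors summed and 11 without pairs listed only for KC, and that between KC and Angus, 48, was 24 in 36 steers and 30 without those pairs. Without those pairs the 72 called between KC and Charolais became 50, and the 74 called among the breeds became 60. In place of 0, the likelihood-ratio test called 1 for the interaction and 1 for RFI in KC, DESeq2 called 1 in KC, and the sire block called 5 in Charolais, where the low-RFI side is that 1 steer. The cause of these shifts was not tested. The alternatives without 2 libraries or 2 steers, and that of bta-miR-155, were chosen after seeing the data. Beside the sire block there was no pairing of steers, since the labels give no replicate numbers shared between groups. The limits of the RFI tests are their 6 steers a group, and depth was not limiting for the arms, of which the lowest count was 3191.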

Other observations

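The 24 steers without an RFI group enter the breed comparisons but not those of RFI. In each breed their mean level of either arm was below that of both RFI groups. bta-miR-126-5p averaged 14614 ± 1315 CPM in the 8 KC steers, 14907 ± 1435 in the 8 Charolais and 14992 ± 1980 in the 8 Angus steers (SD). bta-miR-126-3p averaged 1657 ± 134 CPM in KC, 1708 ± 314 in Charolais and 1658 ± 207 in Angus (SD). The groups overlapped, the difference was not tested, and the study's methods selected the RFI groups partly on expression.

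The miRNAs with the most negative r with each arm over the 60 steers, centred on breed, were bta-miR-214 for bta-miR-126-5p (-0.483) and bta-miR-99b for bta-miR-126-3p (-0.552). Within KC, Charolais and Angus the r of bta-miR-214 was -0.344, -0.477 and -0.630, and that of bta-miR-99b was -0.274, -0.696 and -0.441. bta-miR-214 is known from fibroblasts and stellate cells and averaged 35.5 CPM. bta-miR-143, another mesenchymal miRNA and one of the most abundant in these libraries, had an r of -0.479 with bta-miR-126-3p. The 5 mesenchymal miRNAs did not follow one pattern. With bta-miR-126-3p r was -0.193 for bta-miR-145, -0.178 for bta-miR-214, -0.045 for bta-miR-199a-5p and 0.267 for bta-miR-199a-3p. With bta-miR-126-5p it was -0.127 for bta-miR-145, -0.022 for bta-miR-143, 0.0053 for bta-miR-199a-5p and 0.067 for bta-miR-199a-3p. These values share libraries and scaling with the arms.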
